A study of Mus musculus with 5 samples.

Results

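The comparison described here sets the change in CpG methylation during germ cell-like induction in a parthenogenetic stem cell line against the change in a female embryonic stem cell line. For each region, the change in the female line, ESC-PGCLC minus female ESC, was subtracted from the change in the parthenogenetic line, pESC-PGCLC minus pESC. The result, called the line difference, is in percentage points of methylation and lies above 0 where the pESC line lost less methylation or gained more. Regions entered when all 5 libraries of the study listed a CpG level for them, which held for 154711 of the 176303 regions listed in any library. They comprise 46641 repeats, 19966 introns, 20707 exons, 4445 3' UTRs, 16696 shores of CpG islands (CGIs), 20388 promoters, 14214 CGIs and 11654 5' UTRs, as the deposited files name them.

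The assay was reduced representation bisulfite sequencing, which reads cytosines near MspI sites (CCGG) and so covers the CpG-rich part of the genome. All 5 samples were of the C57BL6 strain. The female ESC library came from a female ES cell line and the pESC library from a parthenogenetic ES cell line, whose genome derives from an egg alone. Both lines were grown on feeder cells in serum with LIF and passed through a 2i and LIF medium with less MEK inhibitor before induction. The labels do not say in which of these states the sequenced stem cells were taken. The PGCLC of both lines were made by 46 h as epiblast-like cells and 4 days in floating culture and were sorted as CD61+ SSEA1+ cells. Primordial germ cells (PGC) from gonads at E12.5, enriched with SSEA1 beads, gave the 5th library, which is not part of the subtraction and served to group regions by an outside measurement. Each group is 1 library from 1 line, the deposited levels carry no read counts, and depth is unknown, so differences between these libraries are described without a test, an interval or a replicate error.

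CpG methylation is copied at each cell division by DNMT1 and laid down by the DNMT3 enzymes, and germ cell precursors of the mouse embryo lose most of it across the genome. Retrotransposons carry much of the methylation of somatic and pluripotent cells, and intracisternal A particles (IAPs) are known to keep part of theirs in germ cells. Imprinted genes carry methylation on the copy from 1 parent, and a parthenogenetic genome holds maternal copies alone.

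Over all 154711 regions the mean CpG level was 27.8% in female ESC and 24.95% in ESC-PGCLC, and 25.7% in pESC and 23.8% in pESC-PGCLC. The level was thus lower after induction in both lines, by -2.84 points in the ESC line and -1.90 points in the pESC line, and the mean line difference was 0.945 points. The median region differed by 0.303 points, and 57.4% of regions lay above 0. The same number can be read as the narrowing of a gap: pESC lay -2.13 points from female ESC before induction, and pESC-PGCLC lay -1.18 points from ESC-PGCLC after it. A shift of any 1 of the 4 libraries enters the line difference in full, and female ESC, the library with the highest mean, also listed the fewest CpG regions (157458, against 166516 to 168945 in the other 4). The part of these library properties in the result was not tested.

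Repeats made up the largest class and were the most methylated. Their mean level went from 50.2% in female ESC to 45.3% in ESC-PGCLC, and from 46.3% in pESC to 43.2% in pESC-PGCLC. The ESC line was lower by -4.95 points and the pESC line by -3.11 points after induction, a mean line difference of 1.83 points with a median of 1.67. The ESC line kept 90.1% of its starting level and the pESC line 93.3%. Single repeats scattered widely around this mean, since the 5th and 95th percentiles of the line difference were -13.4 and 17.5 points.

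Introns and exons had smaller line differences than repeats. In introns the mean level went from 29.6% to 26.5% in the ESC line and from 27.8% to 25.1% in the pESC line, changes of -3.13 and -2.73 points. The mean line difference was 0.398 points, and the lines kept nearly equal shares of their starting levels, 89.5% and 90.2%. In exons the levels were 23.0% and 20.6% in the ESC line and 21.4% and 19.4% in the pESC line, with a mean line difference of 0.386 points and a median of 0.156. Scaling both lines to the same starting mean gave 0.223 points for introns and 0.238 for exons, a fall of more than 1.5 times in both.

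The 3' UTRs had the largest mean line difference of the 8 classes, 2.54 points. Their mean level went from 42.5% in female ESC to 37.4% in ESC-PGCLC and from 38.5% in pESC to 35.9% in pESC-PGCLC. The ESC line was -5.11 points lower after induction, close to the -4.95 points of repeats, whereas the pESC line was -2.57 points lower, less than the -2.73 points of introns. Of the 3' UTRs, 68.8% lay above 0, the highest share of any class. The gap between the lines went from -4.03 points before induction to -1.49 points after it.

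CGI shores, the flanks of about 2 kb beside the islands, changed from 14.3% to 12.46% in the ESC line and from 12.9% to 12.1% in the pESC line. The mean line difference was 0.984 points on a change of -1.83 points in the ESC line, and the lines kept 87.2% and 93.5% of their starting levels. Promoters had a mean line difference of 0.558 points, 5' UTRs 0.154 points and CGIs 0.272 points. CGIs were the 1 class whose mean moved in opposite directions, from 3.91% to 3.67% in the ESC line and from 3.55% to 3.59% in the pESC line. The median line difference was 0.0815 points in CGIs and 0.0374 points in 5' UTRs, classes in which most regions were unmethylated in all libraries.

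**Figure D1:**
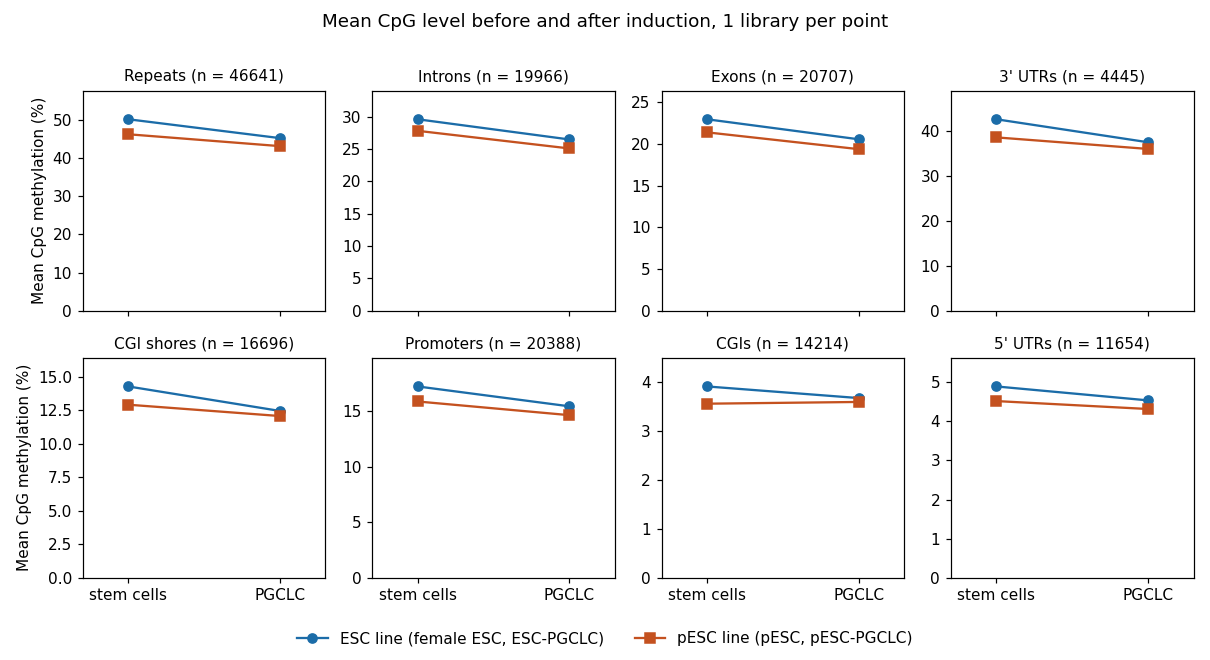
Mean CpG level (%) of each region class before induction (stem cells) and after it (PGCLC), with the ESC line in blue and the pESC line in orange; each point is 1 library, n counts regions, and every vertical axis starts at 0. The lines start apart and come closer in every class, most in repeats (50.2% and 46.3%, then 45.3% and 43.2%) and 3' UTRs.

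**Figure D2:**
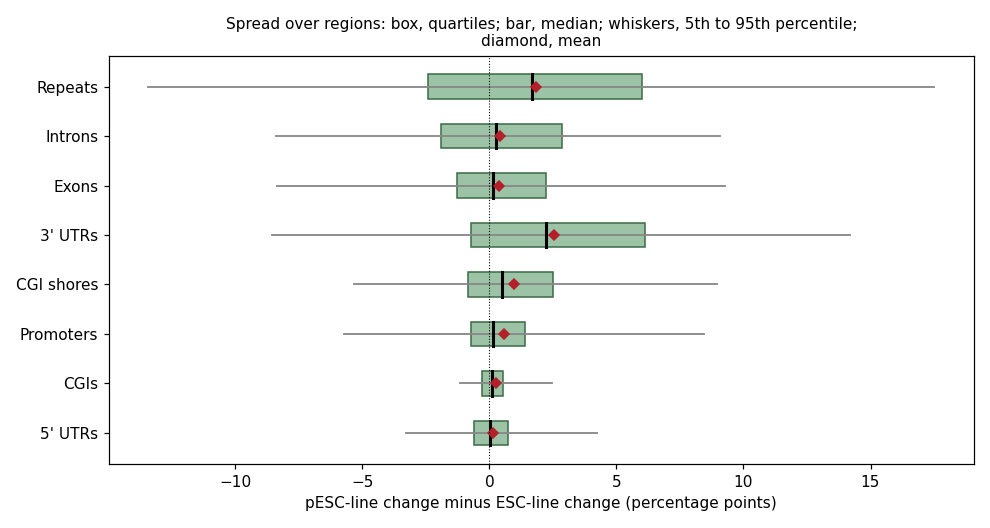
Line difference (pESC-line change minus ESC-line change, percentage points) over the regions of each class: boxes span the quartiles, bars mark the median, diamonds the mean and whiskers the 5th to 95th percentile. The boxes of all 8 classes include 0, and the mean lies above 0 in each, from 0.154 points in 5' UTRs to 2.54 points in 3' UTRs.

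The positive line difference was spread over the repeat classes. All 17 repeat classes with at least 100 entries, which hold 46066 of the 46641 repeats, had a mean and a median above 0. LINE/L1, the autonomous retrotransposons that make up the largest class here with 21176 entries, had mean levels of 55.1% in female ESC, 49.9% in ESC-PGCLC, 51.4% in pESC and 48.1% in pESC-PGCLC, and a mean line difference of 1.86 points. The long terminal repeat classes lay close to it: LTR/ERVK, which holds the IAPs, at 1.68 points, LTR/ERVL-MaLR at 1.84 and LTR/ERVL at 1.74, with LTR/ERV1 lower at 1.22. Among the short interspersed elements, the mean was 1.63 points for B2, 1.72 for Alu (mouse B1), 1.75 for B4 and 2.34 for MIR, an old family shared by mammals.

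The extremes were small classes. DNA/TcMar-Tigger, a class of extinct DNA transposons with 230 entries, had the highest mean at 3.42 points: the ESC line went from 48.2% to 42.4% and the pESC line from 42.0% to 39.7%. SINE/ID, with 303 entries, followed at 3.29 points. DNA/hAT-Tip100, with 145 entries, had the lowest mean at 0.286 points, from 43.6% to 39.8% in the ESC line and 40.3% to 36.8% in the pESC line. In that class both lines kept 91.4% of the starting level, so the shares retained were alike while the points differed slightly. Its median was 1.27 points, with the same starting mean it gave 0.00529, and without entries at exactly 0% or 100% it gave 0.681, so its size depended on the setting. When each family name was counted once in place of each entry, LTR/ERVL gave -0.391 points and satellites -3.37 points, against 1.74 and 1.61 by entry. DNA/TcMar-Tigger then had 1.92 points, below SINE/ID at 3.86 and LINE/CR1 at 3.45, so its first rank holds by entry and not by family name.

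At the level of single families, 89 had at least 100 entries, and in all 89 the mean was lower after induction in both lines and the mean line difference was above 0. By the mean, the highest were L1MdV_III at 4.10 points, Lx7 at 3.94 and Lx8 at 3.61, all L1 families, then ORR1B1-int, the inner part of an ERVL-MaLR element, at 3.34 and MIRc at 3.23. L1MdV_III stood at 47.3% in female ESC, 40.5% in ESC-PGCLC, 41.4% in pESC and 38.8% in pESC-PGCLC. The ESC line thus started highest and ended near the level at which the pESC line began. That does not set L1MdV_III apart, since all repeats (45.3% against 46.3%) and 3' UTRs (37.4% against 38.5%) had the same order. The median over L1MdV_III entries was 2.27 points, and by the median Lx7 was highest at 3.28.

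IAPEz-int, the inner part of the IAP retrovirus, had the lowest mean line difference of the 89 families, 0.158 points. It was also highly methylated in every library, at 75.6% in female ESC, 73.3% in ESC-PGCLC, 73.0% in pESC and 70.9% in pESC-PGCLC. The change was -2.33 points in the ESC line and -2.17 points in the pESC line, so both lines kept about the same share, 96.9% and 97.03%. The median over its entries was 0.562 points, above those of Lx2 (0.272), L1MdTf_III (0.357) and IMPB_01 (0.411), and with the same starting mean it gave 0.0813 points, so its lowest rank holds for the mean as deposited. Next lowest were MTE2a at 0.203 points, the satellite IMPB_01 at 0.334, B1_Mur1 at 0.377 and B1F1 at 0.421. MTE2a and IMPB_01 lay below 0 with both lines scaled to the same starting mean, at -0.0838 and -0.0529 points.

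A split of the IAPs was made after values were seen. IAPEz-int, named above as the lowest family, supplies 328 of the 699 inner entries, so the split is no separate support. The 699 entries of inner IAP parts had a mean line difference of 0.682 points, with levels of 70.6% and 67.6% in the ESC line and 68.1% and 65.8% in the pESC line. The 299 entries of IAP long terminal repeats had 1.58 points, and the 4800 ERVK entries outside the IAPs had 1.83 points. IAPEY3-int, another inner IAP family with 104 entries, had 1.68 points, above the IAP long terminal repeats. Of the other families chosen by name, B1_Mm had 2.51 points, B2_Mm2 1.68, B3 1.33 and the old L1 family Lx 2.83. ETnERV-int, MERVL-int, RLTR10, IAPLTR1_Mm and MT2_Mm had 65, 18, 28, 3 and 2 entries, too few for a mean here, and the L1 names L1Md_A, L1Md_T, L1Md_Gf and L1Md_F2 do not occur in that spelling.

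The files list the L1Md elements under numbered names, which were joined by stem after values were seen. For the young stems the mean line difference was 1.70 points for L1MdA (6391 entries), 1.66 for L1MdGf (984) and 1.08 for L1MdTf (1232). For the older stems it was 1.80 for L1MdF (7366), 1.48 for L1MdN (229) and 2.55 for L1MdV (561). L1MdFanc (505) had 2.03, L1MdMus (204) 1.58, the Lx group (2396) 2.54 and the remaining L1 elements (1308) 2.45. The young and older stems thus overlapped, but each of the larger stems joins numbered families that differed. L1MdA families ran from 0.737 points in L1MdA_V to 2.89 in L1MdA_II, with L1MdA_I at 2.42. L1MdTf families ran from 0.633 in L1MdTf_III to 2.04 in L1MdTf_I, and L1MdF families from 0.704 in L1MdF_II to 2.18 in L1MdF_I. The stem means therefore do not order the families by age. Within L1MdA, with its numbered families joined, the value followed the position in the element. The mix of families at each position was not examined. Entries that begin within the first 500 bases of the consensus, where the promoter of an L1 lies, had levels of 68.3% in female ESC, 62.6% in ESC-PGCLC, 64.8% in pESC and 61.3% in pESC-PGCLC. Their mean line difference was 2.21 points, against 1.49 for entries that begin after base 500 and up to base 5000 and 1.35 for those beyond 5000. L1MdF had the opposite order, 1.42, 1.62 and 2.06 points, so the position had no common direction.

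**Figure D3:**
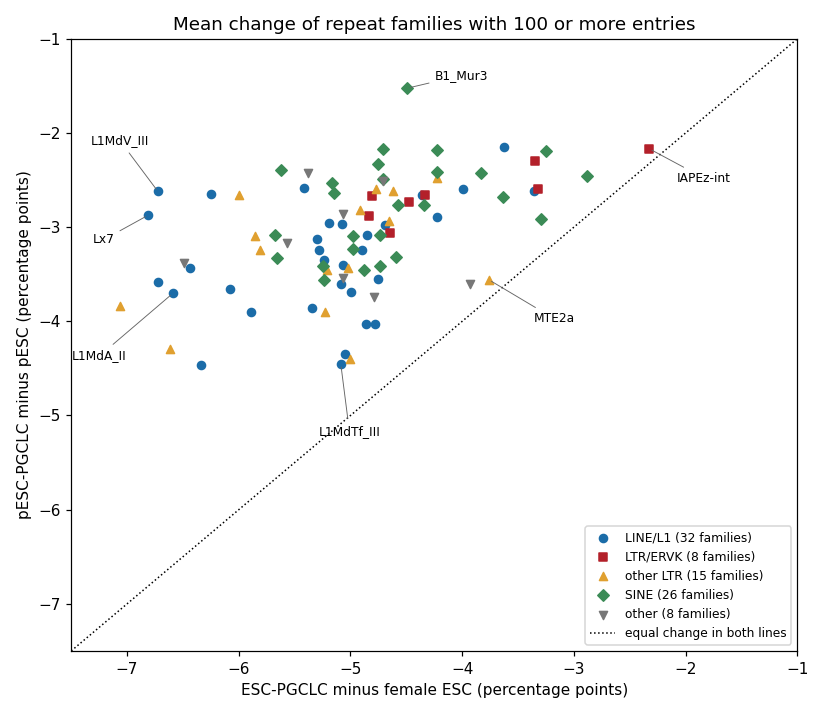
Mean change of each of the 89 repeat families with 100 or more entries in the ESC line (horizontal axis) and the pESC line (vertical axis), both in percentage points; colour and shape give the repeat class, and the dotted line marks equal change. Every family lies above the dotted line and below 0 on both axes, with IAPEz-int (-2.33 and -2.17 points) nearest to the dotted line and L1MdV_III farthest from the dotted line; the families with names were chosen after values were seen.

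Short repeat entries varied more than long ones. The standard deviation of the line difference over entries was 13.3 points for entries of up to 100 bp of the consensus and 6.35 points for those over 3000 bp. The means were 2.27 and 1.68 points, so the mean stayed above 0 at both ends while the scatter was smaller in long entries. How many reads lie behind an entry is unknown, and whether length stands for reads was not tested.

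Regions were next grouped by their level in PGC, the library outside the subtraction. Of the 38 groups of class and PGC level with at least 100 regions, 33 had a mean line difference above 0. At PGC levels from 20% to 40% it was above 0 in 8 of 8 classes, from 0.738 points in introns to 3.40 in CGIs. At 40% to 60% it was again above 0 in 8 of 8 classes, and at 60% or more in 6 of 6. Below 100 regions at that highest level, the 34 5' UTRs had -0.453 points and the 65 CGIs 1.39 points. The 280 CGIs with a PGC level from 20% to 40% changed by -5.10 points in the ESC line and -1.70 points in the pESC line, whereas the 13048 CGIs under 5% in PGC had a mean line difference of 0.0878 points.

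Of the groups with at least 100 regions, those below 0 were at low PGC levels. In the 4981 introns with 5% to 20% in PGC the mean line difference was -0.754 points, with a change of -1.17 points in the ESC line and -1.93 in the pESC line. The 4604 exons of that range had -0.179 points. The other groups of at least 100 regions below 0 were introns, exons and promoters under 5% in PGC, between -0.0851 and 0 points. Introns of 5% to 20% in PGC kept 91.6% of their level in the ESC line and 86.5% in the pESC line, the reverse of the 3' UTRs of that range, which kept 78.6% and 92.1%.

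**Figure D4:**
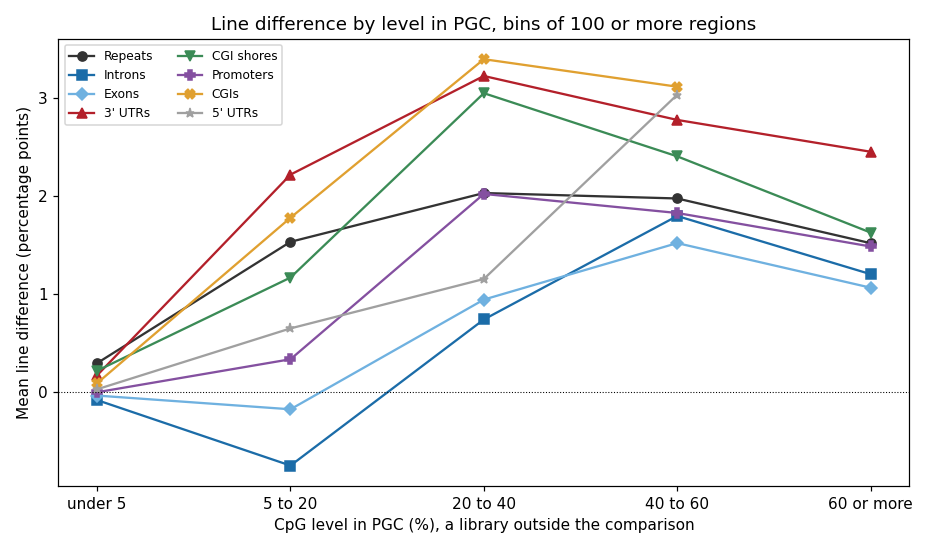
Mean line difference (percentage points) of each region class by the CpG level of the regions in PGC (%), for groups of 100 or more regions; the dotted line marks 0. From 20% in PGC upward every point lies above 0, while introns at 5% to 20% lie lowest at -0.754 points.

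Methylation outside CpG gave line differences near 0. In the CHH context, where the cytosine is not followed by a G in the next positions, repeats were higher after induction by 0.143 points in the ESC line and 0.136 points in the pESC line. The CHH line difference lay between -0.0207 points in 5' UTRs and -0.00683 points in CGI shores, below 0 in each of the 8 classes. Its size was thus far below the 1.83 CpG points of repeats, and taking the CHH level out of every library left the repeat value at 1.84 points.

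The line difference of CGIs and shores was not limited to single chromosomes. The mean over CGIs was above 0 on 20 of 20 chromosomes, from 0.104 points on chromosome 1 to 0.717 points on the X chromosome. The mean over shores was above 0 on 20 of 20 chromosomes, from 0.527 points on chromosome 16 to 1.37 points on chromosome 8. The CGI median on the X chromosome was 0.402 points, against 0.0815 over all CGIs. Without the X chromosome the CGI mean was 0.259 points, against 0.272 with it. The shore mean was 0.987 points without the X chromosome, against 0.984 with it.

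Single regions with a large line difference were counted at 25 points or more. There were 1408 regions at least 25 points higher in the pESC line, 0.91% of all regions, and 1016 at least 25 points lower, 0.657%, or 1.57% in all. In repeats the share in either direction was 3.84%, with 1069 higher (2.29%) and 722 lower (1.55%). With the class median taken out, 894 repeats were higher and 846 lower, so much of the excess went with the shift of the whole class. In introns it was 0.741%, with 80 higher (0.401%) and 68 lower (0.341%), and in exons 0.802%, with 79 higher (0.382%) and 87 lower (0.42%). The 3' UTRs had 1.78%, with 45 higher (1.01%) and 34 lower (0.765%). Repeats thus held most of these regions, and 3' UTRs came next by share. Shores had 0.563%, with 53 higher (0.317%) and 41 lower (0.246%), and promoters 0.574%, with 67 higher (0.329%) and 50 lower (0.245%). Of CGIs 0.0422% passed, 3 in each direction (0.0211%), and of 5' UTRs 0.197%, with 12 higher (0.103%) and 11 lower (0.0944%). Exons were the 1 class with more lower than higher regions at 25 points, and at 10 points they had 891 higher and 752 lower.

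The library that stood apart was often female ESC. In 920 of the 1408 higher regions (65.3%) and 400 of the 1016 lower ones (39.4%), female ESC lay farther from the median of the other 3 libraries than any other library did. Female ESC was above all 3 others in 1147 of the 1408. A high female ESC level raises the line difference and a low one lowers it. Choosing regions by a large line difference therefore favours regions where female ESC is extreme. The matching shares over all regions are not given here, so these counts do not single out female ESC. With 1 library per group and no depth, a single outlying level and a difference between the lines cannot be told apart for a single region.

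Of the 6 CGIs past 25 points, 5 had no library at exactly 0% or 100%. The highest, chr13:119836757-119837075 in mm10, overlaps no gene of the reference and stood at 57.7% in female ESC, 15.4% in ESC-PGCLC, 13.8% in pESC and 10.97% in pESC-PGCLC, a line difference of 39.4 points. An island inside Speg, a kinase gene of striated muscle, at chr1:75384918-75385180, stood at 54.4%, 30.6%, 29.5% and 41.6% in the same order, which gives 36.0 points. The third, chr10:11491978-11492222, outside genes, had 26.3 points. In each of these 3 islands female ESC was the highest library.

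In the other direction, an island inside Polrmt, the gene of the mitochondrial RNA polymerase, at chr10:79739313-79739593, had -43.3 points. It stood at 21.1% in female ESC, 62.6% in ESC-PGCLC, 52.2% in pESC and 50.5% in pESC-PGCLC, so female ESC alone was low. An island in the pseudogene Gm5522 at chr1:10805299-10805885 had -27.3 points, with 28.9%, 39.4%, 34.6% and 17.8%, and here pESC-PGCLC was the low library. The islands nearest outside the threshold had 24.7 and -24.5 points, so the limit of 25 points parts no separate group.

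Of the shores that passed 25 points with no library at 0% or 100%, 42 were higher and 32 lower in the pESC line. The highest was the shore of the Speg island, chr1:75385180-75387181, at 66.7% in female ESC, 27.6% in ESC-PGCLC, 11.1% in pESC and 63.6% in pESC-PGCLC, a line difference of 91.6 points. The ESC line was lower and the pESC line higher after induction, as in the adjoining island. The deposited shore levels of 66.6667% in female ESC and 11.1111% in pESC are simple fractions, which a few reads can give. The number of reads is unknown. A shore in Vps18, a gene of the lysosomal membrane-tethering complex, at chr2:119288755-119290756, had 54.2 points, from 61.1% to 30.9% in the ESC line and from 23.1% to 47.1% in the pESC line. Shores in Chrm2, a muscarinic acetylcholine receptor gene, and Gng7, a G protein gamma subunit gene, had 46.4 and 44.9 points. In Chrm2 female ESC stood apart at 88.9%, with 48.3% in ESC-PGCLC, 51.1% in pESC and 57.0% in pESC-PGCLC. The other 4 of the top 8 had 39.9 to 49.3 points, and 1 of them, at chr9:11277855-11279856, overlaps the pseudogene Gm18934.

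Among the lower shores, 1 in the zinc finger gene Zfp385c, chr11:100638048-100640048, had the most extreme value, -101 points. It stood at 10% in female ESC, 90% in ESC-PGCLC, 66.3% in pESC and 45% in pESC-PGCLC. Round levels such as 10%, 90% and 45% can likewise come from few reads. Shores in Csnk1e, a casein kinase gene of the circadian clock, and Syvn1, the gene of a ubiquitin ligase of the endoplasmic reticulum, had -47.0 and -45.7 points. At Syvn1, chr19:6044735-6046735, the levels were 13.6%, 24.8%, 51.8% and 17.2% in the same order, so pESC was the library that stood apart. Rexo2, a gene of an RNA exonuclease, had -43.5 points with female ESC low at 5.71% and the other 3 between 35.1% and 46.9%. Wipf1, whose protein binds the Wiskott-Aldrich syndrome protein, had -42.5 points. Shores overlap each other where islands lie close together, and 220 shores hold the same 5 values as another shore.

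Promoter sequences of 4 genes from RefSeq (GRCm38.p6) are shown because they lie inside a region described by name: Speg and Syvn1 in the shores with line differences of 91.6 and -45.7 points, Dnmt3l in a shore and Plagl1 in an island that are described further on. Each is the 250 bases before a RefSeq start on the plus strand, 5' to 3', with every CG in capitals; the choice of these 4 was made after values were seen.
Speg: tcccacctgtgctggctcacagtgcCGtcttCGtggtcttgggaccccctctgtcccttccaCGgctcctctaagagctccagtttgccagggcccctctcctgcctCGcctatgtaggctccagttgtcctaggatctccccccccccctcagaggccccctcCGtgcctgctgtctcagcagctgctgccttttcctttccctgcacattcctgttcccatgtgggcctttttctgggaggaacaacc
Syvn1: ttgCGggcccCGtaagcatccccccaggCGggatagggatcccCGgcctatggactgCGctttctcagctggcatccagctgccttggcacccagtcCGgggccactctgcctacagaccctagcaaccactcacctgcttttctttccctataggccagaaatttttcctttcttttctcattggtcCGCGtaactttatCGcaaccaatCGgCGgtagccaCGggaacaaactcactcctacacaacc
Dnmt3l: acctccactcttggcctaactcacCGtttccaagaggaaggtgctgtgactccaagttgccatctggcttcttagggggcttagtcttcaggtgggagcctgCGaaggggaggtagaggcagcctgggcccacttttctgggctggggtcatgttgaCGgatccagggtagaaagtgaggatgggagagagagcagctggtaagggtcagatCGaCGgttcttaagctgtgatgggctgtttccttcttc
Plagl1: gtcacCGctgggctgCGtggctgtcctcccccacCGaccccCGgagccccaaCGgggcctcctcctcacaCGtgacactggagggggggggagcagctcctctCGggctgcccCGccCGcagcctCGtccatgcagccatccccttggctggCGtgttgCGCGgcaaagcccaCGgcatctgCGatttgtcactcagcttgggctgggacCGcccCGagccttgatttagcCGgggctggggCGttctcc

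The windows are chr1:75385360-75385609 for Speg, chr19:6046326-6046575 for Syvn1, chr10:78042037-78042286 for Dnmt3l and chr10:13090582-13090831 for Plagl1. The Speg window lies inside the gene, beside an inner start, and the other 3 end just before the first base of the gene. The 4 windows hold 5, 12, 5 and 19 CG, against a median of 6 over 32851 promoter windows of the same length. The MspI motif CCGG, which reads the same on both strands, occurs 2 times at Syvn1, 2 times at Plagl1 and in neither of the other windows; 47.1% of all windows hold it. Which CpGs of a region were read is not in the deposited levels, so a window without CCGG says only that these letters are not in it.

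Imprinted genes were looked at because the lines differ in parental origin. Islands within 1000 bp of, or inside, a gene of the maternally methylated list were kept when PGC had at least 20%, a choice made after values were seen, which left 15 islands. pESC was above female ESC in 14 of them, with Fkbp6 as the exception, and the medians were 56.1% in pESC and 18.96% in female ESC. After induction pESC-PGCLC was above ESC-PGCLC in 13 of 15, with medians of 47.1% and 13.2%. The lines thus stayed far apart at these islands after induction.

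The line difference at these islands had no common sign, with 8 above and 7 below 0 and a median of 0.375 points. Over all 514 CGIs with at least 20% in PGC, 370 lay above and 144 below 0, and the median was 2.90 points. Peg3, a paternally expressed zinc finger gene, had the highest value: its island at chr7:6730062-6730398 went from 36.3% to 12.2% in the ESC line and from 65.7% to 58.8% in the pESC line, a difference of 17.2 points. The shore around it holds identical levels and is no second measurement. Lowest was an island of 270 bp in Gnas, the gene of the stimulatory G protein alpha subunit, at chr2:174297262-174297532, with 18.9% and 10.6% in the ESC line and 64.4% and 44.7% in the pESC line, a difference of -11.4 points. A second Gnas island of 2181 bp, at chr2:174298463-174300644, had 4.16 points, so the islands of this gene had opposite signs.

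At the Kcnq1ot1 island, in the gene of the noncoding RNA of the Kcnq1 cluster, both lines were higher after induction, from 16.7% to 20.5% in the ESC line and from 67.7% to 75.02% in the pESC line, a difference of 3.46 points. A shore beside it, chr7:143293403-143295403, had -21.2 points, the lowest of the imprinted shores, with 26.3% and 37.5% in the ESC line and 50% and 40% in the pESC line. Such simple fractions can come from few reads. Another shore, chr7:143294312-143296312, spans the island and had 3.30 points. It stood at 16.9% and 20.7% in the ESC line and 67.2% and 74.3% in the pESC line, so the shores had opposite signs. The island shared by Airn and Igf2r hardly moved, at 2.01% and 1.03% in the ESC line and 61.2% and 62.1% in the pESC line. The island of Plagl1, a zinc finger gene whose promoter window lies in it, stood at 1.35% and 2.47% in the ESC line and 28.7% and 22.7% in the pESC line, a difference of -7.08 points. Where the ESC line starts near 0 it has little methylation to lose, so at Peg10 and the 1019 bp island of Zrsr1 the line difference is nearly the change of the pESC line alone. The 21 shores chosen in the same way had 12 above and 9 below 0 and a median of 0.964 points, against 2.80 points over all 3401 shores with at least 20% in PGC.

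**Figure D5:**
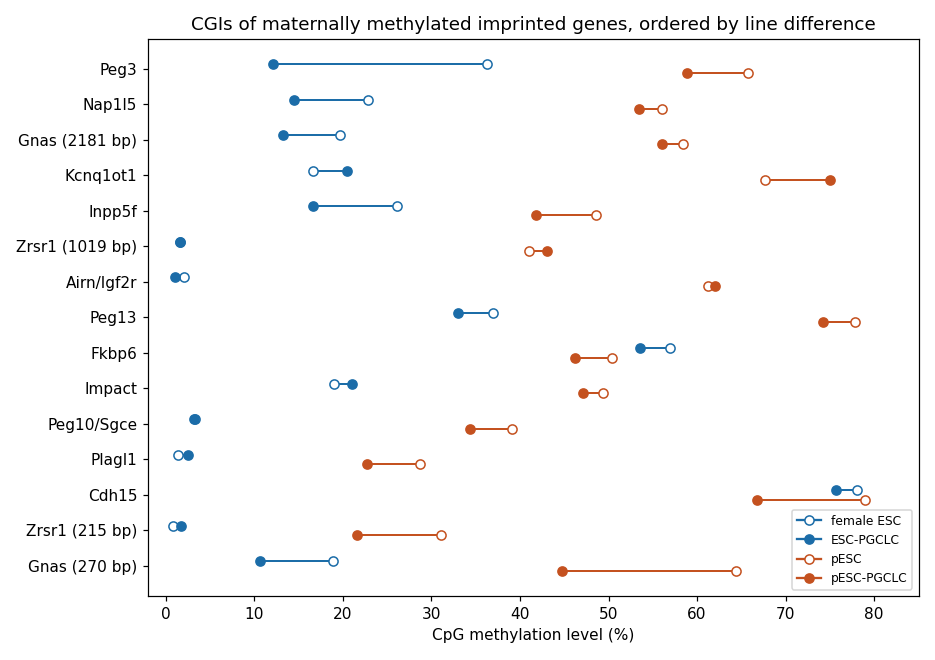
CpG level (%) of the 15 islands of maternally methylated imprinted genes, ordered from the highest line difference (top) to the lowest; open circles are stem cells, filled circles PGCLC, blue the ESC line and orange the pESC line, 1 library each. The orange points lie to the right of the blue ones except at Fkbp6 and, after induction, Cdh15; the blue span at Peg3 (36.3% to 12.2%) and the orange span at the 270 bp Gnas island (64.4% to 44.7%) are the longest.

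Gene lists were described through 1 region for each gene, the longest CGI at either gene end or, where there was none, the longest shore. Of 23 maternally methylated imprinted genes 19 had such a region, 10 above and 9 below 0, with a median of 0.155 points. Peg10 and Sgce share 1 island, so these are 18 regions. The rule goes by place and length, so the region need not carry the imprint. In pESC the regions of Igf2r, Grb10, Gnas and Slc38a4 stood at 0.795%, 1.59%, 2.77% and 3.74%, and those of Airn and Kcnq1ot1 at 61.2% and 67.7%. The list median thus mixes methylated and unmethylated regions. Of 5 paternally methylated genes, Dlk1 and Rasgrf1 had such a region, with 0.551 and 0.817 points. Both regions stood under 3% in all 4 libraries, so these values do not describe a methylated imprinted region. A second, shorter Dlk1 island, chr12:109459744-109460028, went from 35.02% to 25.1% in the ESC line and from 24.3% to 22.4% in the pESC line, a difference of 8.08 points. For comparison, the median was 0.0815 points over all CGIs and 0.475 over all shores, and 56.2% and 59.9% of them lay above 0.

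Of 30 germline genes, many of which are silenced by promoter methylation in somatic cells, 20 were measured. Of these, 10 lay above and 10 below 0, with a median of -0.00890 points. Their median level in PGC was 23.4%, and all CGIs and shores with at least 20% in PGC had medians of 2.90 and 2.80 points. Not all of the germline regions reach that PGC level. The shore of Tdrd6, a tudor domain gene of the germ cell chromatoid body, had -28.5 points and was the 1 listed gene past 25 points, with 14.2% in female ESC, 22.4% in ESC-PGCLC, 32.6% in pESC and 12.3% in pESC-PGCLC. Sycp1, a gene of the meiotic synaptonemal complex, had -7.03 points: its island stayed at 31.9% and 32.5% in the ESC line and went from 28.3% to 21.8% in the pESC line. Sycp3, of the same complex, went from 54.4% to 48.0% and from 49.0% to 45.4%, a difference of 2.78 points. Dazl, a gene of a germ cell RNA-binding protein, changed about equally, from 25.5% to 22.9% and from 20.9% to 17.98%.

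Of 12 genes of methylation writers and erasers 8 were measured, 7 of them by an island below 3% in all 4 libraries. The exception was Dnmt3l, the cofactor of the de novo enzymes, whose shore at chr10:78041410-78043410 went from 39.0% to 24.9% in the ESC line and from 33.7% to 30.3% in the pESC line, a difference of 10.7 points. Dnmt3b and Uhrf1, a de novo enzyme gene and the gene of a DNMT1 partner, had 0.475 and -0.0728 points. Of 18 genes of pluripotency and germ cell specification 9 were measured, with a median of -0.176 points and levels under 4% throughout, Sox2 at 0.0481 and Prdm14 at 0.647 among them. Of 58 clustered protocadherins, cell adhesion genes that share long clusters, 26 were measured on 25 regions, 17 above and 9 below 0, with a median of 0.667 points. Pcdhb20 was the highest of these at 9.90 points, with 29.0% and 20.9% in the ESC line and 20.5% and 22.3% in the pESC line.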

How the data were processed

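The authors deposited 1 table per library with a methylation level per region as a fraction from 0 to 1, the region class and the cytosine context, per the file headers; levels are printed as percent. The submitters' processing notes name Bismark 0.16.3, Bowtie2 and mm10; the sources used here do not give what each did, how regions were drawn, whether coordinates count from 0 or which coverage was needed. Per the labels' protocols, MspI-digested DNA was spiked with lambda DNA and treated with bisulfite. The deposited fractions carry no counts, so depth and its precision are unknown.

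The line difference was computed with Python 3.11.15 (pandas 2.3.3, numpy 2.4.6), and the scripts were tested on simulated data. Groups follow the sample labels. Repeat classes and families needed 100 entries. Named are all classes, the 5 highest and 5 lowest families and a list of families, and up to 8 CGIs and shores in each direction past 25 points with no library at 0% or 100%. Exon, intron, UTR and promoter entries carry Ensembl IDs, of which 0 were paired with symbols, so none is named. CGIs and shores were tied to genes through RefSeq coordinates (GRCm38.p6, the same assembly as mm10). Regions named for passing 25 points were tied to the genes they overlap. Imprinted islands and shores were taken inside a listed gene or within 1000 bp of it. For the gene lists, a region had to lie within 1000 bp of a gene end. Members, lists and rules were chosen with earlier results of these data known. Alternatives were another listing rule, CHH subtraction, filters on extreme, low or outlying levels, the median, equal starting means, other thresholds, the class median taken out and each family counted once.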

Additional observations from a re-analysis of the deposited data

Results flagged for a closer look

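The 2 lines moved in opposite directions in the entries that follow, and the difference was not tested. The most extreme levels, at the Speg and Zfp385c shores, may rest on few reads. Simple fractions also occur at other shores in the list. The Gng7 shore had 16.6667% in pESC and 50% in pESC-PGCLC, and the Vps18 shore 61.1111% in female ESC. The number of reads is unknown for every island and shore named. Over all CGIs the mean was lower after induction in the ESC line (-0.237 points) and higher in the pESC line (0.0354 points), a line difference of 0.272 points. Among named islands and shores, those are given in which each line moved by at least 10 points, a limit chosen after values were seen. The ESC line was lower and the pESC line higher at the Speg island (36.0 points), the Speg shore (91.6), the Vps18 shore (54.2), a shore outside genes on chromosome 2 (49.3) and the Gng7 shore (44.9). The ESC line was higher and the pESC line lower at the Gm5522 island (-27.3 points) and the shores of Zfp385c (-101), Syvn1 (-45.7), Rexo2 (-43.5) and Wipf1 (-42.5), and at a shore outside genes on chromosome 18 (-38.2).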

How the results depend on the processing

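No paired analysis was possible because each group has 1 library and the labels carry no replicate numbers; for the same reason no library could be left out. With no replicates or counts, a value was taken as moved when it differed from the reported one by over 1.5 times. No region class mean changed sign under any alternative run, and the means of repeats and 3' UTRs stayed between 1.57 and 1.92 and between 2.22 and 2.97 points. With a mean level of at least 10% the class means were 0.717 (introns), 0.855 (exons), 2.40 (shores), 1.63 (promoters), 2.79 (CGIs) and 1.52 points (5' UTRs); the medians were 0.246, 0.156, 0.475, 0.131, 0.0815 and 0.0374. With the same starting mean, introns gave 0.223 and exons 0.238. Each family name counted once gave -0.391 for LTR/ERVL and -3.37 for satellites, and moved DNA/TcMar-Tigger to 1.92, LTR/ERV1 to 0.585, SINE/B2 to 2.58, LINE/L2 to 0.390 and DNA/hAT-Tip100 to 0.920. IMPB_01 and MTE2a gave -0.188 and -0.125 without entries at exactly 0% or 100%, and -0.0529 and -0.0838 with the same starting mean. Of 46641 repeats, 6094 were higher and 3594 lower at 10 points, and 315 and 232 at 40 points. Of 16696 shores the counts were 657 and 290, then 11 and 12. Of 14214 CGIs they were 72 and 26, then 0 and 1. Of 20707 exons they were 891 and 752, then 23 and 26. Shores, CGIs and exons thus had no excess of higher regions at 40 points. With the class median taken out, 894 repeats were higher and 846 lower at 25 points, against 1069 and 722 as deposited. Alternatives without regions past 25 points, without regions in which 1 library lies over 25 points from the median of the other 3, and, for CGIs and shores, on autosomes alone were chosen after seeing the data and moved no region class mean they were run on by over 1.5 times. The causes were not tested. Unknown depth limits every single region.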
